A study of Mus musculus with 9 samples.

Results

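The genes described here encode the nuclear subunits of respiratory complexes II, III, IV and V, together with cytochrome c, the soluble carrier between complexes III and IV. They were taken by symbol (Sdha to Sdhd, Uqcr genes, Cyc1, Cycs, Cox genes numbered 4 to 8 and followed by a, b or c, Atp5 genes) from a table of 65389 rows. The symbols matched 48 rows, and 46 of them reached 0.5 FPKM, the fragment density per kilobase of transcript scaled to the size of the library, in 3 or more of the 9 libraries. The same filter left 14013 genes of the table in all. The other 2 matching rows, Cox8c and the pseudogene Cox7c-ps1, were listed at 0 in every library. The kept members are 4 genes of complex II, 9 of complex III, cytochrome c itself, 15 of complex IV and 17 of complex V. The Cox4i1 and Cox4i2 genes of complex IV and Ndufa4 have symbols outside the pattern and are given beside the members.

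Polyadenylated RNA of the mouse medial prefrontal cortex was sequenced in 9 libraries, with 3 libraries in each of 3 groups. The running model is labelled exercise, and the series text places the running in mice exposed to chronic unpredictable stress (CUS). The CUS model is labelled stress, and the control is labelled unstressed. All 3 groups carry the terms 4 week and week 8, whose meaning, like strain, sex and age, is not stated in these sources. Replicates are numbered 1 to 3 by order of listing. The labels do not say that each library came from its own animal, so p-values speak only of the scatter among these libraries, and that scatter may be technical.

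Complex II, succinate dehydrogenase, oxidises succinate in the citric acid cycle and passes electrons to ubiquinone. Complex III passes them on to cytochrome c, and complex IV, cytochrome c oxidase, passes them to oxygen, and both of these pump protons across the inner mitochondrial membrane. Complex V, the ATP synthase, uses the proton gradient to make ATP, on which the ion pumps and vesicle cycling of neurons depend. Core subunits of complexes III, IV and V are encoded by mitochondrial DNA and are not analysed here. Many of the nuclear genes have promoters with binding sites of nuclear respiratory factor 1 (NRF1) and of the ETS-family factor GABP, also called nuclear respiratory factor 2.

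Promoters were read from RefSeq on GRCm38.p6, from 250 bases before to 50 bases after each start site, and 37 of the 46 members had an entry. The NRF1 motif, GCGCA followed by any base and GCGC, searched on both strands, lay in the promoters of 10 of the 37 members (27.0%), against 10.6% of 11159 kept genes with an entry. The ETS motif CCGGAAG, on either strand, lay in those of 13 members (35.1%), against 18.2% of kept genes. The motif AANATGGC of the factor YY1 lay in those of 5 members (13.5%), against 9.23% of kept genes. In the whole promoter table, windows of the same length held these motifs in 4.60%, 8.86% and 6.05% of 32851 windows, in the same order. The NRF1 and ETS motifs can share at most 1 base at their ends, and either can share at most 3 with the YY1 motif. NRF1 or ETS motifs lay in 51.4% of members and 26.5% of kept genes. None of the 3 motifs lay in the promoters of 14 of the 37 members (37.8%) and of 67.4% of kept genes. The low isoform genes Cox7a1, Cox8b, Cox6b2 and Cox7b2 were among these 14, as were abundant members such as Cox5a and Cycs. The promoters of 3 members are shown because both NRF1 and ETS motifs lie in the 250 bases before the start, 1 each from complexes II, IV and V, with the matches in capitals. A match describes the letters and was not tested as a binding site. All 3 lie on the minus strand and are written 5′ to 3′ on that strand, at chr9:50603850-50604099 for Sdhd, chr5:115348959-115349208 for Cox6a1 and chr11:115419920-115420169 for Atp5h.
Sdhd: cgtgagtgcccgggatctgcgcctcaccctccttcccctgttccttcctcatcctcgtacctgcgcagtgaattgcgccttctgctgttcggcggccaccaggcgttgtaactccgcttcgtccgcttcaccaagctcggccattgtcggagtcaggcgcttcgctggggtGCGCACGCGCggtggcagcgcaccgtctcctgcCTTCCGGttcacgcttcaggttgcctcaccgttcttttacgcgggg
Cox6a1: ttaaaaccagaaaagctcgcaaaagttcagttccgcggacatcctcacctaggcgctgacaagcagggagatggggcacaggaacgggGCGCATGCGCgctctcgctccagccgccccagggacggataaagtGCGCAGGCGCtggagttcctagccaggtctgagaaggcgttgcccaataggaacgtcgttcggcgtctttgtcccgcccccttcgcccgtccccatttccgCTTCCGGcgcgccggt
Atp5h: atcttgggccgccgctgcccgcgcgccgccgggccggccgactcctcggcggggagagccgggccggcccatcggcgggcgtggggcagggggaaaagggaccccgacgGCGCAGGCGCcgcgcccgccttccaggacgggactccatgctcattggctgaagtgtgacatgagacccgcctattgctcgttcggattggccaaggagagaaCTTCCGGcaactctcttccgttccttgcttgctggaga

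There were 3 libraries that stood apart from the rest. CUS replicate 3 had the highest FPKM sum of the table, 423257, where the other 8 libraries lay between 370441 and 393663. Control replicate 1 held transcripts of skeletal muscle. A list of 11 muscle genes, chosen after their values were seen, summed to 537 FPKM there, against 9.84 to 41.3 FPKM in the other 8 libraries, with 1 of the 11 (Tnnt3) listed at 0 in running replicate 1. Control replicate 3 had 215 FPKM over 5 choroid plexus markers, far above each other library, and 1147 FPKM over 7 oligodendrocyte markers, against 462 to 684 FPKM in the other 8. Ttr alone made up 212 FPKM of that choroid plexus sum. Folr1 and Kl were also highest in control replicate 3, at 0.89 and 1.51 FPKM, while Kcnj13 and Aqp1 were highest in other libraries. The 5 general neuronal markers, of which none was at 0, summed to 3536 to 3888 FPKM in running, 3474 to 3628 in CUS and 3577 to 3658 in control libraries, so transcripts of neurons were present in each. These markers do not tell the region of the brain. The 6 inhibitory neuron markers, none at 0, summed to 666 to 722 FPKM in running, 768 to 867 in CUS and 685 to 860 in control libraries. Sst, the somatostatin gene, made up most of that sum, with 495, 451 and 441 FPKM in running, 547, 563 and 653 in CUS and 599, 471 and 592 in control libraries, so that running lay below CUS. Gad2 lay the other way, with 28.2, 29.7 and 30.1 FPKM in running and 26.7, 25.7 and 24.7 in CUS libraries, and Gad1, Pvalb, Vip and Slc32a1 overlapped between these groups. The part of these genes in the results was not tested. In bulk tissue, fewer cells of a type and less RNA per cell cannot be told apart.

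The summed level of the 46 members was 8817, 7855 and 7948 FPKM in the running libraries, 9764, 8994 and 11605 in the CUS libraries and 8461, 8406 and 9245 in the control libraries. This was 2.33, 2.12 and 2.14% of all FPKM in running, 2.48, 2.33 and 2.74% in CUS and 2.22, 2.23 and 2.37% in controls. CUS replicate 3 was the highest of the 9 and running replicates 2 and 3 the lowest, while running replicate 1 lay below each CUS library and above 2 of the 3 controls. As a share of all FPKM, running replicate 1 and CUS replicate 2 were nearly equal, at 2.327 and 2.328%. Of the 46 members, 41 averaged above 45 FPKM over the 9 libraries, and 5 low isoform genes of complex IV averaged below 11 FPKM. That split was made after the values were seen. Among the 41 abundant members, the highest library was CUS replicate 3 for 38, and running replicate 2 or 3 was the lowest for 37. How often these libraries were the highest or lowest over all kept genes was not counted.

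**Figure D1:**
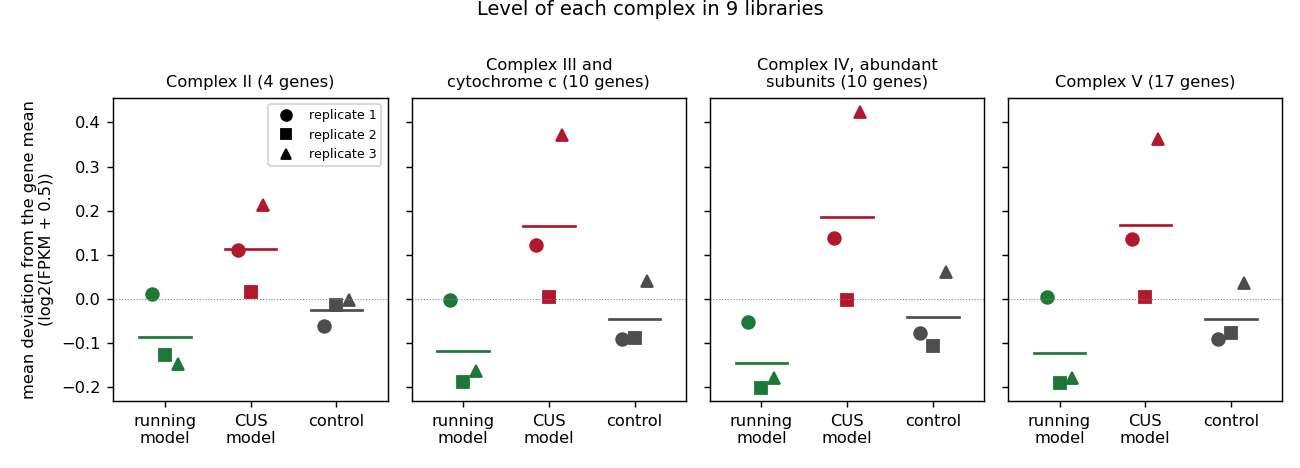
Level of each complex in the 9 libraries, as the mean over its genes of log2(FPKM + 0.5) minus the gene's mean over all libraries, with symbols for replicates 1 to 3 and a bar for the group mean. In complex V, the running libraries sit at 0.0045, -0.19 and -0.18, the CUS libraries at 0.13, 0.0030 and 0.36 and the controls at -0.091, -0.078 and 0.035.

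In running compared with CUS mice, the question of what running does in stressed animals, 45 of the 46 members had a lower fitted level, with a median log2 difference of -0.28, where the median of all 14013 kept genes was -0.033. Of all kept genes, 57.8% had a lower fitted level. With limma, 0 of 46 members were called at an adjusted p under 0.05, where 0.00714% of all genes were called in either direction. At an adjusted p under 0.1, 14 of 46 members (30.4%) were lower, against a background of 4.5% of genes. At an unadjusted p under 0.05, 35 of 46 members (76.1%) were lower, against 15.7% of genes. All 3 running libraries lay below all 3 CUS libraries for 23 of 46 members (50%), against 15.9% of genes. After rescaling to TPM 43 members were lower, and with quantile normalization 42 were. The median of all genes in these settings was 0.062 and -0.0021, in the same order. Running replicate 1 was the only exception to a full separation for 16 of the 41 abundant members, a count not made over all genes. Without CUS replicate 3 the median was -0.18, with 45 members lower and 0 called. Without CUS replicate 2, 27 of 46 members (58.7%) were called lower, against 7.56% of genes. With library quality weights, 27 of 46 were called lower, against 10.6% of genes.

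In CUS compared with control mice, 42 of 46 members had a higher fitted level, where 55.9% of all genes did. The members' median log2 difference was 0.20 against 0.022 for all genes. The 4 other members were low isoform genes of complex IV. With limma, 0 of 46 were called, where 0.00714% of all genes were called in either direction. At an unadjusted p under 0.05, 17 members (37.0%) were higher, against a background of 8.9%, and 1, Cox8b, was lower (2.17%), against 5.79%. The CUS libraries all lay above the controls for 12 of 46 members (26.1%), against 12.1% of genes. CUS replicate 3 lay above each control for 40 of the 41 abundant members, CUS replicate 1 for 36 and CUS replicate 2 for 13. No such count was made over all kept genes. Of the 876 kept genes under 1000 bases, 18.4% had a lower fitted level in CUS than in control. Without CUS replicate 3 the median was 0.10. The CUS libraries enter this comparison and the preceding one with opposite signs.

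**Figure D2:**
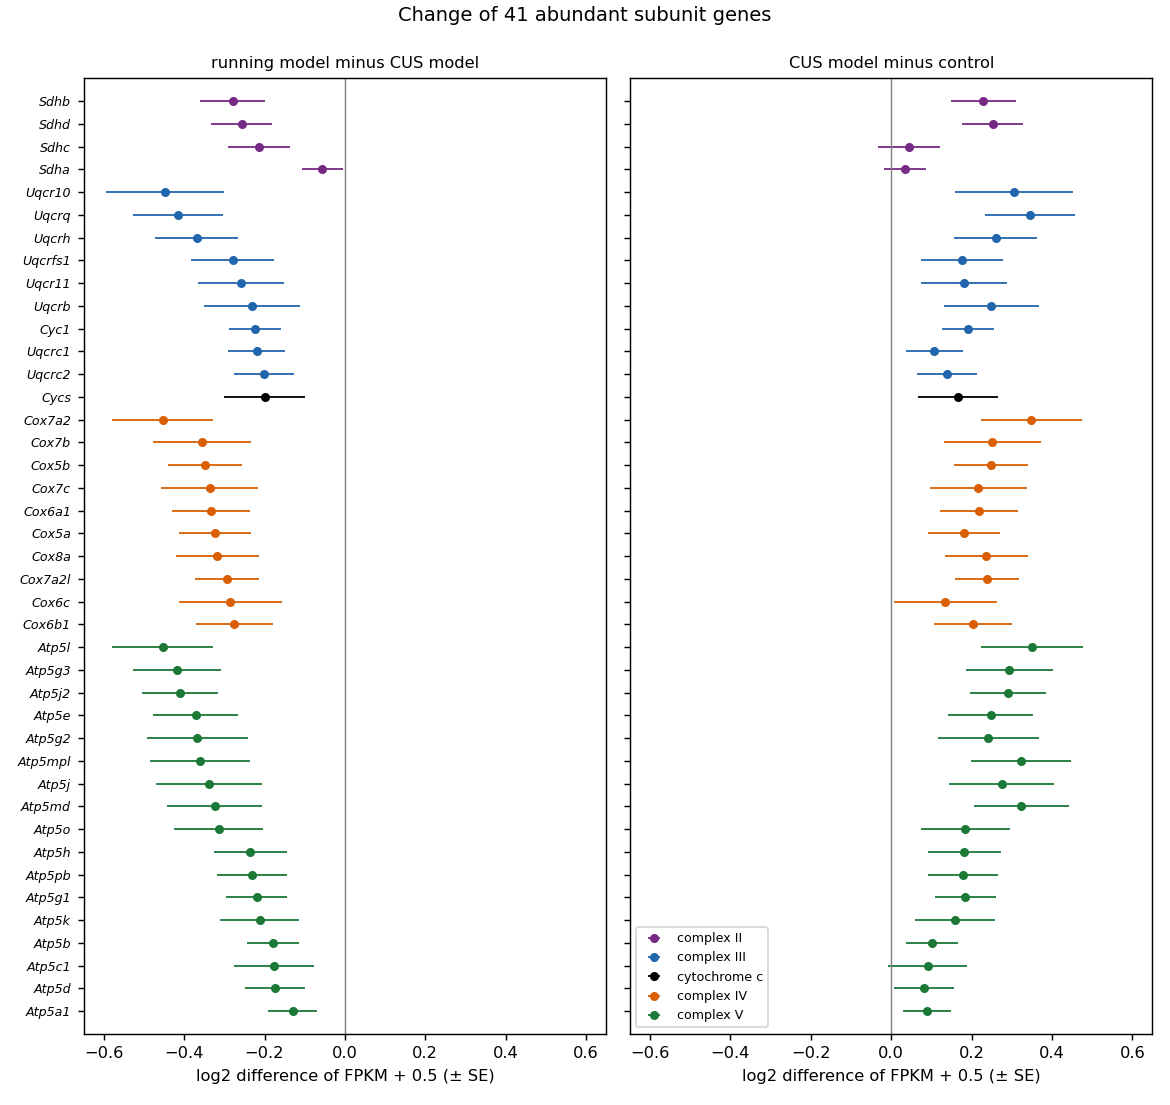
Log2 difference of FPKM + 0.5 (limma estimate ± SE, 9 libraries) of the 41 abundant members, coloured by complex, with running minus CUS on the left and CUS minus control on the right. The left-hand values lie between -0.45 for Cox7a2 and -0.056 for Sdha, and the right-hand values are all above 0.

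The size of these differences followed transcript length across the whole table. Members are short, with a median of 725 bases against 2921 for kept genes. Among the 876 kept genes under 1000 bases, members included, the median log2 difference between running and CUS was -0.28, and it was 0.047 among the 6632 genes of 3000 bases or more. Of the 876 short genes, 88.1% had a lower fitted level in running than in CUS. The 29 members under 1000 bases had a median of -0.32, and the 12 members between 1000 and 2000 bases had -0.24, where all 2979 genes of that length had -0.16. Between CUS and control, genes under 1000 bases had a median of 0.17 and the 29 members 0.24. Across genes, which are not independent replicates and share libraries, Spearman's rho between length and the running minus CUS difference was 0.55 over the 41 abundant members and 0.59 over 13766 genes. With the trend of length and GC content removed from each library, the members' median was -0.090 for running minus CUS, with 36 of 46 lower, and 0.093 for CUS minus control, with 40 higher. In that setting all 14013 kept genes had medians of -0.012, with 7544 lower, and 0.017, with 7853 higher. The part of library quality in these differences was not tested.

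**Figure D3:**
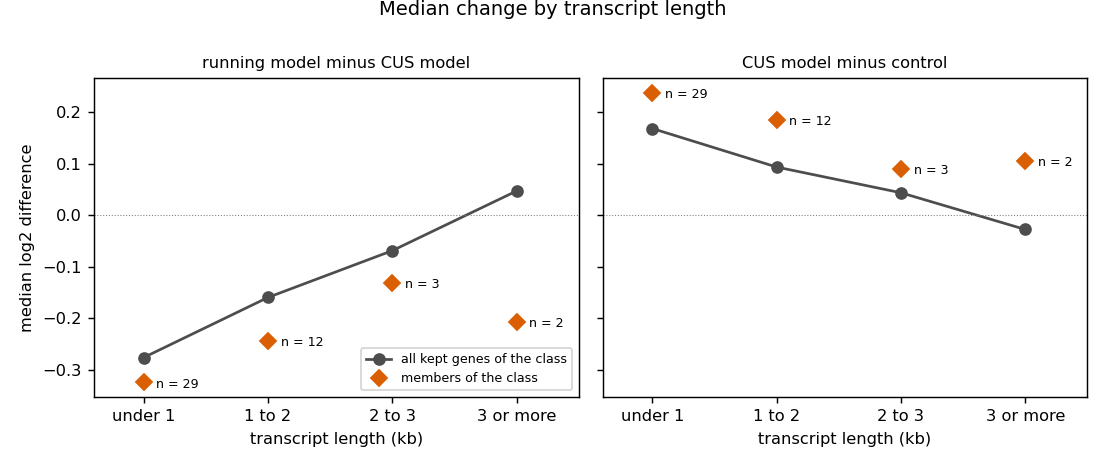
Median log2 difference by transcript length class (kb) for all kept genes of the class (circles, members included) and for the members in it (diamonds, with their number). In running minus CUS, the median of all genes runs from -0.28 in the shortest class to 0.047 in the longest, and the members lie below it in each class.

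In complex II, the fitted level was lower in running than in CUS for all 4 genes (median log2 difference -0.24) and higher in CUS than in controls (median 0.14), although Sdha turned sign with the scaling in both comparisons and Sdhc in CUS against control. Sdhb, the iron-sulfur subunit (chromosome 4, 140961271 to 140979198), had 110.4, 97.5 and 93.8 FPKM in running, 119.6, 112 and 135 in CUS and 102, 103 and 107 in control libraries. Sdhd, a membrane anchor, had 45.3, 40.3 and 41.3 FPKM in running, 49.6, 47.2 and 55.2 in CUS and 39.5, 45.2 and 42.7 in control libraries. For both genes the running libraries lay below all CUS libraries and the CUS libraries above all controls. The log2 difference between running and CUS was -0.28 for Sdhb (SE 0.0806, limma adjusted p = 0.0963) and -0.26 for Sdhd (SE 0.0762, limma adjusted p = 0.0993). Between CUS and control the differences were 0.23 and 0.25, with limma adjusted p of 0.276 and 0.260.

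Sdha, the catalytic flavoprotein, was the flattest abundant member, with 132, 125 and 125 FPKM in running, 137, 130.3 and 131 in CUS and 127, 129.7 and 131 in control libraries. The 3 groups overlapped, and the log2 difference between running and CUS was -0.056 (SE 0.0516). It turned to 0.046 after rescaling to TPM and to 0.042 with quantile normalization, so no direction is given. Its transcript of 2900 bases is long for a member, and with the length trend removed the value was -0.031. Sdhc, the other membrane anchor, had 71.3, 65.1 and 62.4 FPKM in running, 77.0, 69.2 and 85.0 in CUS and 75.2, 72.8 and 75.5 in control libraries. Its running libraries lay below all controls, a log2 difference of -0.17 (limma adjusted p = 0.438), and overlapped the CUS libraries. Its log2 difference between CUS and control was 0.044 (limma adjusted p = 0.790), and it was -0.022 after rescaling to TPM, -0.010 with quantile normalization and -0.029 without CUS replicate 3, so no direction is given.

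In complex III and cytochrome c, the fitted level was lower in running than in CUS for each of the 10 genes (median log2 difference -0.24) and higher in CUS than in controls (median 0.19). Uqcrq, a small subunit near the quinone site (chromosome 11, 53427922 to 53430831), had 64.7, 55.2 and 56.1 FPKM in running, 74.1, 68.2 and 94.6 in CUS and 59.4, 58.9 and 66.3 in control libraries. The running libraries lay below all CUS libraries, which lay above all controls. Its log2 difference was -0.42 between running and CUS (SE 0.112, limma adjusted p = 0.0901) and 0.34 between CUS and control (limma adjusted p = 0.267). Without CUS replicate 3 the running minus CUS value was -0.28.

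Cyc1, cytochrome c1, the haem subunit that hands electrons to cytochrome c, had 102, 90.7 and 94.2 FPKM in running, 113, 106 and 116 in CUS and 94.5, 95.5 and 103 in control libraries. Its groups separated in the same way, with a log2 difference of -0.22 between running and CUS (limma adjusted p = 0.0978) that was -0.19 without CUS replicate 3. The most abundant genes of the complex were Uqcrh, the hinge protein that binds cytochrome c1, and Uqcr11. Uqcrh had 196, 187 and 188 FPKM in running, 236, 216 and 291 in CUS and 197, 194 and 228 in control libraries, and Uqcr11 had 214, 191 and 185 in running, 218, 213 and 278 in CUS and 194, 201 and 228 in controls. Uqcrh separated running from CUS (log2 difference -0.37, limma adjusted p = 0.0928), and Uqcr11 did not, since running replicate 1 lay above CUS replicate 2. With the length and GC trend removed, Uqcrh had -0.11, while Uqcr11 had 0.0098 and Uqcrb 0.077, both of the other sign. The Rieske protein gene Uqcrfs1, the core protein genes Uqcrc1 and Uqcrc2, and the small subunit genes Uqcrb and Uqcr10 had log2 differences between -0.45 and -0.20. Cycs, cytochrome c itself, had 57.4, 50.1 and 52.9 FPKM in running, 61.2, 52.2 and 72.4 in CUS and 54.0, 54.7 and 55.3 in control libraries, with overlap among all groups.

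Complex IV held the most abundant member, Cox8a (chromosome 19, 7215158 to 7217616), with 752, 672 and 690.3 FPKM in running, 835, 784 and 1029 in CUS and 724, 709 and 802 in control libraries. Its running libraries lay below all CUS libraries, by a narrow margin between running replicate 1 and CUS replicate 2, and its CUS libraries overlapped the controls. The log2 difference between running and CUS was -0.32 (SE 0.104, limma adjusted p = 0.117), and -0.20 without CUS replicate 3. Cox6a1, the form of subunit VIa found outside muscle, had 477, 441 and 471 FPKM in running, 572, 514 and 674 in CUS and 498, 471 and 535 in control libraries. Cox5b, a matrix-side subunit (chromosome 1, 36691487 to 36693388), had 370.5, 332 and 322 FPKM in running, 423, 398 and 485 in CUS and 359, 339 and 399.8 in control libraries. Both genes separated running from CUS and not CUS from control, with log2 differences between running and CUS of -0.33 and -0.35 and limma adjusted p of 0.0974 and 0.0888.

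Cox7a2, the form of subunit VIIa found outside muscle (chromosome 9, 79755241 to 79771422), had the largest difference of the 10 abundant genes of complex IV between running and CUS, at -0.45 (SE 0.126, limma adjusted p = 0.0924). It had 149, 127 and 137 FPKM in running, 184, 155 and 235 in CUS and 142, 146 and 156 in control libraries. Cox7a2l, a relative that joins complexes III and IV into supercomplexes, had 117, 119 and 118 FPKM in running, 143, 129.6 and 164 in CUS and 119, 119 and 130.1 in control libraries. Running lay below CUS in every library pair for both genes, and the 3 running libraries lay close together for Cox7a2l. Its log2 difference was -0.29 between running and CUS (SE 0.0800, limma adjusted p = 0.0921). Cox6b1 had 378, 343 and 351 FPKM in running, 419, 386 and 499 in CUS and 367, 353 and 407 in control libraries. Running lay below CUS in every library pair, at a log2 difference of -0.27, which was -0.033 with the length and GC trend removed. Cox5a, Cox6c, Cox7b and Cox7c had log2 differences between -0.36 and -0.28. Outside the symbol pattern, Cox4i1 had -0.30, Ndufa4 had -0.36 and Cox4i2, the lung form of subunit IV, had 0.035, with limma adjusted p of 0.125, 0.154 and 0.892.

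The other 5 kept genes of complex IV were low in this tissue. Cox6a2, Cox7a1 and Cox8b encode the heart and skeletal muscle forms of their subunits, and Cox6b2 and Cox7b2 are known from testis. Cox6a2 (chromosome 7, 128205435 to 128206366) had 9.15, 6.99 and 8.07 FPKM in running, 11.2, 6.48 and 11.4 in CUS and 20.3, 8.70 and 11.9 in control libraries. Cox7a1 had 2.03, 2.76 and 2.98 FPKM in running, 2.58, 3.41 and 2.11 in CUS and 5.55, 2.42 and 4.22 in control libraries. Cox8b had 0.680, 1.04 and 0.160 FPKM in running, 0.170, 0.340 and 0 in CUS and 3.68, 0.700 and 0.360 in control libraries, and a listed 0 may be a failed estimate. In all 3 muscle forms, control replicate 1 held the highest value of the 9 libraries. It was also the library with 537 FPKM of muscle genes. Among these, Acta1, skeletal muscle actin, had 7.43, 11.4 and 7.12 FPKM in running, 7.60, 8.15 and 10.3 in CUS and 103, 11.5 and 8.65 in control libraries. Pvalb, expressed both in fast muscle and in parvalbumin interneurons, had 42.8, 31.8 and 35.2 FPKM in running, 35.7, 27.4 and 32.6 in CUS and 75.8, 34.0 and 44.2 in control libraries.

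The log2 differences between CUS and control were -0.43 for Cox6a2, -0.47 for Cox7a1 and -1.31 for Cox8b, with limma adjusted p between 0.298 and 0.451. Without control replicate 1 they were -0.11, -0.23 and -0.63. Cox8b separated CUS from control in every library, at values below 1 FPKM in all libraries other than control replicate 1 and running replicate 2. This was 1 of 46 members (2.17%) with all CUS libraries below all controls, against 7.6% of genes. Its CUS values all lay under the 0.5 FPKM of the filter, which Cox8b passed through running and control libraries alone. As a share of the summed FPKM of Cox6a1 and Cox6a2, Cox6a2 made up 1.88, 1.56 and 1.68% in running, 1.92, 1.24 and 1.67% in CUS and 3.91, 1.81 and 2.17% in control libraries. Cox7a1 made up 1.34, 2.12 and 2.13% of its pair with Cox7a2 in running, 1.38, 2.16 and 0.890% in CUS and 3.77, 1.63 and 2.63% in controls. The groups overlapped in both shares, and exact two-sided permutation tests gave p = 0.200 for Cox6a2 and p = 0.200 for Cox7a1 between CUS and control, where 0.1 is the smallest p that 3 libraries against 3 allow. Cox8b made up 0.0904, 0.155 and 0.0232% of its pair with Cox8a in running, 0.0204, 0.0433 and 0% in CUS and 0.506, 0.0986 and 0.0449% in controls, with CUS below control in each library (exact permutation p = 0.1). Cox4i2 made up 0.443, 0.496 and 0.558% of its pair with Cox4i1 in running, 0.349, 0.401 and 0.431% in CUS and 0.462, 0.546 and 0.438% in controls, and the CUS share lay below both other groups (exact permutation p = 0.1 for each). Cox4i2 itself overlapped among the groups, with 2.45, 2.58 and 2.79 FPKM in running, 2.09, 2.39 and 3.21 in CUS and 2.43, 2.74 and 2.63 in controls. Cox4i1 had 550, 517 and 497 FPKM in running, 597.3, 593 and 742 in CUS and 524, 499 and 597.5 in controls. Over the 24 tests of 8 shares in 3 comparisons, the lowest Benjamini-Hochberg adjusted exact p was 0.533. Cox6b2 had 1.42, 1.71 and 2.17 FPKM in running, 1.67, 1.93 and 4.01 in CUS and 2.57, 1.71 and 1.34 in control libraries. It was highest in CUS replicate 3 with control replicate 1 next, and Cox7b2 lay between 0.22 FPKM in running replicate 1 and 0.89 FPKM in control replicate 1.

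**Figure D4:**
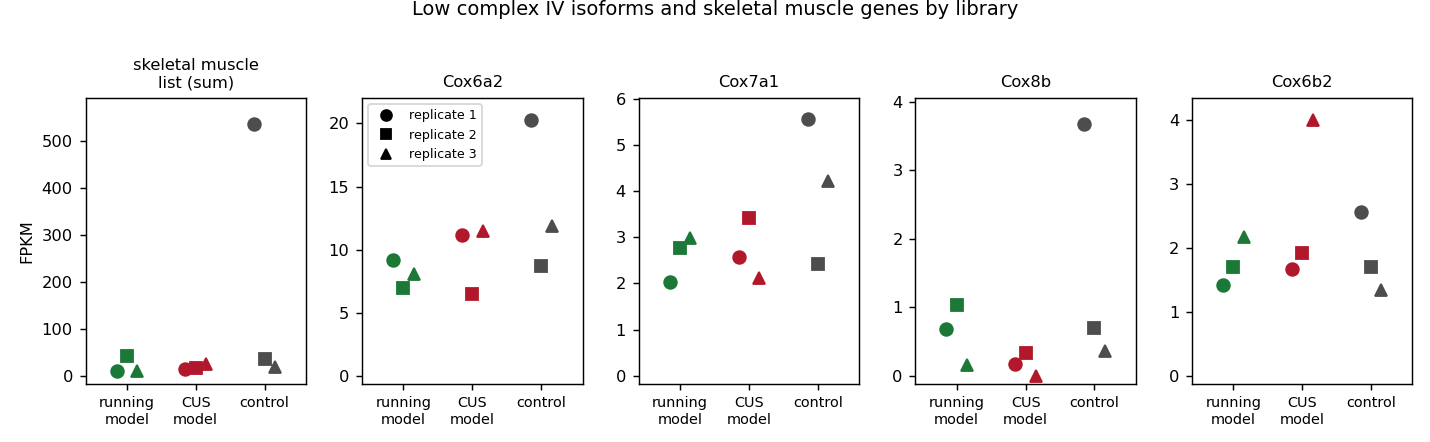
FPKM by library of the summed list of 11 skeletal muscle genes and of 4 low genes of complex IV, with symbols for replicates 1 to 3 and a linear scale of its own in each panel. Control replicate 1 is the highest library for the muscle list, Cox6a2, Cox7a1 and Cox8b, while Cox6b2 is highest in CUS replicate 3.

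In complex V, all 17 genes had a lower fitted level in running than in CUS and a higher one in CUS than in controls, with median log2 differences of -0.31 and 0.18. The genes of the alpha, beta, gamma and delta subunits had the 4 smallest differences of the complex between running and CUS. Atp5b, the catalytic beta subunit (chromosome 10, 128083307 to 128090388), had 564, 517 and 518 FPKM in running, 628, 582 and 599.5 in CUS and 551, 559 and 577 in control libraries. Its running libraries lay below all CUS libraries and its CUS libraries above all controls, at log2 differences of -0.18 (SE 0.0656, limma adjusted p = 0.144) and 0.10 (SE 0.0656). The other head and central stalk genes were Atp5a1 (alpha) at -0.13, Atp5c1 (gamma) at -0.18, Atp5d (delta) at -0.17 and Atp5e (epsilon) at -0.37 between running and CUS. Transcript lengths were 2471 bases for Atp5a1, 1916 for Atp5b, 1450.5 for Atp5c1, 931 for Atp5d and 421 for Atp5e. The part of length in this order was not tested.

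In the membrane part of the enzyme, Atp5j2, which encodes subunit f (chromosome 5, 145183704 to 145191541), had the smallest adjusted p among all members, with 201, 175 and 180.3 FPKM in running, 243, 218 and 281 in CUS and 198, 190.3 and 216 in control libraries. Running lay below CUS, and CUS above control, in every library pair, at log2 differences of -0.41 (SE 0.0949, limma adjusted p = 0.0776) and 0.29 (SE 0.0949, limma adjusted p = 0.267). With the length trend removed the running minus CUS value was -0.21. Atp5l, subunit g, had 282, 237 and 229 FPKM in running, 322, 289 and 422 in CUS and 261, 264 and 274 in control libraries. Atp5md, also known as DAPIT, a small subunit linked to dimers of the enzyme, had 410.4, 342 and 396 FPKM in running, 449, 429 and 566 in CUS and 340.4, 389 and 419 in control libraries. Both separated running from CUS and CUS from control, with running minus CUS values of -0.45 and -0.32, and -0.30 and -0.20 without CUS replicate 3. With the length and GC trend removed, Atp5l had -0.18 and Atp5md 0.0017, a value of the other sign. The peripheral stalk genes Atp5pb, Atp5h, Atp5j and Atp5o lay between -0.34 and -0.23, and the small membrane subunit genes Atp5k and Atp5mpl at -0.21 and -0.36. Among these and the head and stalk genes, Atp5h, Atp5k and Atp5d also took the other sign with the length and GC trend removed, at 0.0069, 0.064 and 0.027.

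The genes Atp5g1, Atp5g2 and Atp5g3 encode the same mature subunit c of the rotor ring with different import signals. Atp5g3 had 231, 189 and 190.2 FPKM in running, 281, 233 and 303 in CUS and 205, 225 and 234 in control libraries. Atp5g1 had 159, 143 and 144 FPKM in running, 167, 164 and 189.6 in CUS and 153, 142 and 162 in controls, and Atp5g2 had 128, 120.4 and 109 in running, 151, 126 and 190.0 in CUS and 130.1, 123 and 136 in controls. Atp5g3 and Atp5g1 separated running from CUS, and Atp5g2 did not, with log2 differences of -0.42, -0.22 and -0.37 and limma adjusted p of 0.0877, 0.130 and 0.125. The share of Atp5g3 in the 3 genes was 44.6, 41.8 and 42.9% in running, 47.0, 44.5 and 44.4% in CUS and 41.9, 45.9 and 44.0% in control libraries, and that of Atp5g1 was 30.7, 31.6 and 32.6% in running, 27.8, 31.5 and 27.8% in CUS and 31.4, 29.0 and 30.4% in controls. The mix overlapped between groups, with exact two-sided permutation p of 0.300 for Atp5g3 and 0.200 for Atp5g1 between running and CUS. Reads that match more than 1 of such paralogues or their processed pseudogenes may have been split among copies, which FPKM values do not show.

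In running compared with control mice, 45 of 46 members had a lower fitted level, with a median log2 difference of -0.088 against -0.019 for all genes. With limma 0 members were called, where 0.0214% of genes were called in either direction, and 1 member, Cox6a2, was lower at an unadjusted p under 0.05, against 6.47% of genes. Without control replicate 1, the library with muscle transcripts, the log2 difference of Cox6a2 was -0.32 in place of -0.64, at a limma adjusted p of 0.659 in place of 0.405. The groups did not overlap for Sdhc and Cox7c, which is 2 of 46 members (4.35%) against 11.9% of genes. After rescaling to TPM 39 members were lower, and with quantile normalization 35 were, where the median of all genes was 0.015 and 0.0036. Removing the trend of length and GC content gave a median of -0.0023, with 23 members higher and 23 lower, where the median of all genes was 0.0033. Running replicates 2 and 3 each lay below every CUS and control library for 35 of the 41 abundant members, and running replicate 1 did so for 2. This order was not counted over all kept genes, so it is not shown to be particular to the members. The 876 kept genes under 1000 bases, members included, had a median log2 difference of -0.11 between running and control. The 29 members of that length had -0.11 as well. The 5 blood markers, none at 0, summed to 972 to 1238 FPKM in running, 683 to 1040 in CUS and 493 to 875 in control libraries, and their part in this comparison was not tested.

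Lists of related genes were read beside the members, and with limma 0 of their genes were called in the 3 comparisons. Of 35 kept assembly factors of complexes II to V, 31 had a lower fitted level in running than in CUS (median log2 difference -0.20), where 57.8% of all genes did, and 13 (37.1%) were lower at an unadjusted p under 0.05, against 15.7% of genes. With the length and GC trend removed their median was -0.051. Surf1, which assembles the core of complex IV, had 37.9, 38.3 and 36.5 FPKM in running, 47.5, 46.4 and 50.7 in CUS and 40.6, 39.0 and 42.2 in control libraries, with a log2 difference of -0.35 between running and CUS (SE 0.0563, limma adjusted p = 0.0776) and -0.19 without the length and GC trend. Bcs1l, which inserts the Rieske protein into complex III, had 8.49, 9.18 and 8.16 FPKM in running, 10.4, 11.3 and 11.1 in CUS and 9.72, 10.8 and 9.81 in control libraries. In both genes the running libraries lay below the CUS libraries and below the controls. Of 14 citric acid cycle genes, 12 had a lower fitted level (median -0.13), with Idh3g at -0.22 and Mdh2 at -0.22. These became -0.051, -0.071 and -0.080 with the length and GC trend removed. Of 6 carriers and outer membrane pores, 5 did (median -0.17), with Vdac2 at -0.23 and Vdac3 at -0.23, and these became -0.023, -0.13 and -0.040. All running libraries lay below all CUS libraries for 7 of the 14 citric acid cycle genes (50%). They did so for 8 of the 35 assembly factors (22.9%) and 1 of the 6 carriers and pores (16.7%). For the members this share was 50%, and for all genes 15.9%.

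The 16 regulators of mitochondrial transcription and biogenesis split evenly, with 8 higher and 8 lower in running than in CUS and a median of -0.030. Pprc1, a coactivator related to PGC-1alpha, had 5.47, 6.29 and 6.06 FPKM in running, 5.25, 5.31 and 4.21 in CUS and 4.96, 4.60 and 4.90 in control libraries, higher in every running library than in any CUS or control library (log2 difference 0.25, limma adjusted p = 0.151 against CUS). Gabpa, the DNA-binding subunit of GABP, had 5.65, 5.98 and 5.46 FPKM in running, 5.10, 5.05 and 5.28 in CUS and 5.10, 5.21 and 4.87 in control libraries, also with no overlap and at a limma adjusted p = 0.259 against CUS. Neither passed the threshold. All running libraries lay above all CUS libraries for 2 of the 16 regulators (12.5%), against 8.99% of genes. They lay above all controls for 3 (18.8%), against 10.5% of genes. Taking out the length and GC trend lowered the running minus CUS value of Pprc1 from 0.25 to 0.15 and that of Gabpa from 0.13 to 0.10. The regulators' median became -0.010. Against control, Pprc1 had 0.27 in both settings, and Gabpa went from 0.16 to 0.13.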

How the data were processed

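Polyadenylated RNA of 9 medial prefrontal cortex samples was sequenced, and the authors deposited 1 table of FPKM values per gene and library. Per the labels' protocols, RNA was taken up in Trizol, selected with oligo(dT) and copied with random primers, with no step that marks strand. Per the submitters' processing notes, Bowtie2 2.2.5, RSEM 1.2.12, DESeq2 1.4.5 and mm10 were used, and no role is given for each. Total counts cannot be had from FPKM, so the depth of each library is unknown.

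Groups follow the labels. A gene was kept where 3 or more of 9 libraries reached 0.5 FPKM, which left 14013, and log2(FPKM + 0.5) was fitted with limma 3.58.1 in R 4.3.3, in 1 model of 3 group means with an intensity trend. Fold changes are on that scale, which understates those of low genes. P-values were adjusted by Benjamini-Hochberg over all kept genes and called under 0.05. The script was tested on simulated data with 200 changed genes. The members and lists were chosen with earlier results of these data known. The members given in every library were the 2 most abundant and the 2 with the smallest p in running minus CUS and in CUS minus control for each complex, all of complex II and every paralogue set, which made 25, and Cycs was added after its values were seen. Transcript lengths and GC content came from GENCODE M21, gene coordinates and promoters from RefSeq on GRCm38.p6. Alternatives changed the pseudocount, filter, scaling, length and GC trend, library weights, samples fitted and variance prior, and left out each library.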

Additional observations from a re-analysis of the deposited data

How the results depend on the processing

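The members' medians kept their sign under each alternative in each comparison, but running minus control had no direction once the length and GC trend was removed. Its median was then -0.0023, with 23 members higher and 23 lower. Under the alternatives, 0 members were called except in the 2 settings given for running minus CUS, library quality weights and leaving out CUS replicate 2, with 27 lower in either. The cause was not tested. For running minus CUS, leaving out 1 library at a time gave medians from -0.38 to -0.18. For CUS minus control, leaving out 1 library at a time gave medians from 0.10 to 0.28. For running minus control, leaving out 1 library at a time gave medians from -0.14 to -0.055. For running minus CUS it was -0.14 with quantile normalization, -0.090 with the length and GC trend removed and -0.074 also without CUS replicate 3, a setting chosen after the values were seen, which gave 0.075 for CUS minus control. Over all genes, the number called for running minus CUS was 1, and it was 0 with no filter, 0 with the trend removed, 3 after rescaling to TPM, 2 with quantile normalization or median centring, 15 with the groups fitted alone, 2178 with library weights, and 0 to 1518 without 1 library. The higher end of that range came without CUS replicate 2, and 21 genes were called without control replicate 2. For CUS minus control 1 gene was called, 0 with the stricter filter, 8 with weights and 1 to 6 without 1 library, most without control replicate 2. For running minus control 3 genes were called, 1 with no filter, 16 with the trend removed, 147 with weights, 24 with the groups alone, 7 with no intensity trend and 1 to 10 without 1 library, most without CUS replicate 1 or 3. Among the alternative values of single named members, 58 had the other sign, 33 newly passed the threshold and 1406 kept both. Once the length and GC trend was removed, running minus CUS turned sign to 0.0017 for Atp5md, 0.012 for Cox6a2, 0.23 for Cox7a1 and 0.0098 for Uqcr11. With library quality weights, running minus CUS turned sign to 0.00060 for Cox6b2. With quantile normalization, running minus CUS turned sign to 0.042 for Sdha. After rescaling to TPM, running minus CUS turned sign to 0.046 for Cox7a1 and 0.046 for Sdha. Without 1 library, the members whose sign turned for running minus CUS ranged over -0.18 to 0.11 for Cox7a1. With library quality weights, CUS minus control turned sign to -0.037 for Cox6b2. With quantile normalization, CUS minus control turned sign to -0.035 for Sdha and -0.010 for Sdhc. After rescaling to TPM, CUS minus control turned sign to -0.032 for Sdha and -0.022 for Sdhc. Without 1 library, the members whose sign turned for CUS minus control ranged over -0.015 to 0.51 for Cox6b2 and -0.029 to 0.12 for Sdhc. Once the length and GC trend was removed, running minus control turned sign to 0.0029 for Atp5g2, 0.012 for Atp5l, 0.13 for Atp5md, 0.032 for Cox6a1, 0.044 for Cox6b1, 0.096 for Cox6b2, 0.010 for Cox7a2, 0.025 for Cox7a2l, 0.067 for Cox8a, 0.049 for Cyc1, 0.048 for Sdhb, 0.066 for Sdhd, 0.080 for Uqcr11 and 0.0091 for Uqcrh. With library quality weights, running minus control turned sign to 0.040 for Atp5md. With median centring, running minus control turned sign to 0.0060 for Atp5md and 0.0010 for Sdhd. With quantile normalization, running minus control turned sign to 0.029 for Atp5b, 0.021 for Atp5g1, 0.076 for Atp5md, 0.017 for Cox8a, 0.0070 for Sdha and 0.018 for Sdhd. After rescaling to TPM, running minus control turned sign to 0.00074 for Atp5g1, 0.036 for Atp5md, 0.0037 for Cyc1, 0.014 for Sdha and 0.030 for Sdhd. Without 1 library, the members whose sign turned for running minus control ranged over -0.084 to 0.0088 for Atp5g1, -0.083 to 0.078 for Atp5md, -0.21 to 0.16 for Cox6b2, -1.08 to 0.065 for Cox8b, -0.079 to 0.0073 for Cyc1 and -0.056 to 0.041 for Sdhd. No paired analysis was possible because the replicate numbers were given in order of listing and tie no library to one of another group. Sequencing depth is not given by FPKM values, so no counting error stands beside a low value such as those of Cox8b or Cox7b2.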
